A study of Mus musculus with 6 samples.

Results

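The genes described here encode the nuclear subunits of respiratory complexes II, III, IV and V and somatic cytochrome c, measured in the dorsolateral prostate of TRAMP mice after oral OSU-CG5 or vehicle. They were chosen by gene symbol alone, from the probe sets whose platform annotation gives a single symbol. The symbols taken were Sdha, Sdhb, Sdhc, Sdhd, Cyc1 and Cycs, and those starting with Uqcr, Cox4 to Cox8, or Atp5. This gave 48 genes of 18193, carried by 96 of 45037 probe sets, and the probe set with the highest average signal on the 6 arrays stood for each gene. Complex II had 4 genes, complex III 9, complex IV 17 and complex V 17, and Cycs stood alone.

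Both groups were intact males of the genotype (C57BL/6 TRAMP x FvB) F1, in which a probasin promoter drives the SV40 T antigens in prostate epithelium, so the vehicle animals carried the oncogene as well. One group of 3 mice received OSU-CG5 by gavage, 100 mg/kg each day, for 4 weeks, between 6 and 10 weeks of age, and the other group of 3 mice was given vehicle over the same weeks. OSU-CG5 is a code name, and no structure is given for it here. Mice were killed about 2 to 4 h after their final dose, and every mouse gave 1 Affymetrix array.

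Mitochondria make most of a cell's ATP by passing electrons along a chain of protein complexes in their inner membrane. Complex II takes electrons from succinate, complex III passes them to cytochrome c, complex IV hands them to oxygen, and complex V uses the resulting proton gradient to make ATP. Several complex IV subunits exist as a form found in most tissues and a form of muscle, brown fat or testis. Prostate epithelium is known for holding back the citric acid cycle at aconitase in order to secrete citrate.

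All values are log2 signals as deposited, and differences are OSU-CG5 minus vehicle on that scale. SE is limma's moderated standard error, and adjusted p is Benjamini-Hochberg over all 45037 probe sets. Array medians lay between 5.30 and 5.38. Vehicle replicate 2 stood apart, correlating at 0.966 to 0.981 with the rest across probe sets, while the rest correlated at 0.987 to 0.995 among themselves. The seminal vesicle markers averaged 7.91 on that array and 3.56 to 5.08 on the other arrays. The prostate secretory gene Pbsn read 13.82 to 13.90 with OSU-CG5 and 13.28 to 13.91 with vehicle, so the labelled tissue was borne out by this marker. The 3' minus 5' signal of the Gapdh control probe sets, which tracks RNA integrity, was 2.72 to 3.03 with OSU-CG5 and 2.15 to 2.76 with vehicle, and that of Actb was 2.97 to 3.11 with OSU-CG5 and 2.91 to 3.15 with vehicle. The groups overlapped in both, but for Gapdh only because vehicle replicate 3 (2.76) lay above OSU-CG5 replicate 1 (2.72). The means with OSU-CG5 and vehicle were 2.89 and 2.39 for Gapdh, and 3.03 and 2.99 for Actb. The part of RNA integrity in the differences below was not tested. These are bulk samples, in which fewer cells of a type and less RNA per cell cannot be told apart.

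The comparison asked whether transcripts of the respiratory chain differed after the compound, which has been described as an energy restriction mimetic. Most read slightly lower with OSU-CG5 and none passed the adjusted test. The median difference over the 48 genes was -0.13, and 38 of them (79.2%) lay below 0, where 65.7% of all 18193 genes did, with a median of -0.09. With limma 0 of 45037 probe sets passed an adjusted p of 0.05 (0%), and the smallest adjusted p among the respiratory genes was 0.183, for Cox7a1. At a nominal, that is unadjusted, p below 0.05, 7399 probe sets (16.4%) differed in either direction.

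At that nominal threshold 8 respiratory genes (16.7%) read lower and 0 read higher with OSU-CG5. Over all genes 8.43% were lower and 5.4% higher at the same threshold. The 8 were the muscle-type subunits Cox6a2, Cox7a1 and Cox8b, the common subunit Cox8a, Uqcr10 of complex III, and Atp5e, Atp5g2 and Atp5k of complex V. The same number of genes, 8, had all OSU-CG5 arrays below all vehicle arrays, a share of 16.7% against 14.2% of all genes, which is near the background. Only 1 of the 48 genes, Sdhd, had all OSU-CG5 arrays above all vehicle arrays (2.08%, against 8.1% of all genes). The vehicle means of the 8 lower genes exceeded the OSU-CG5 means by 1.20- to 1.38-fold. The count of lower genes varied with single arrays. It was 2 when OSU-CG5 replicate 3 was left out and 5 when OSU-CG5 replicate 2 or vehicle replicate 1 was. It was 7 without vehicle replicate 2, and 9 without OSU-CG5 replicate 1 or vehicle replicate 3. Shares of all genes were not computed for these fits, so the changes cannot be set against the background.

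**Figure D1:**
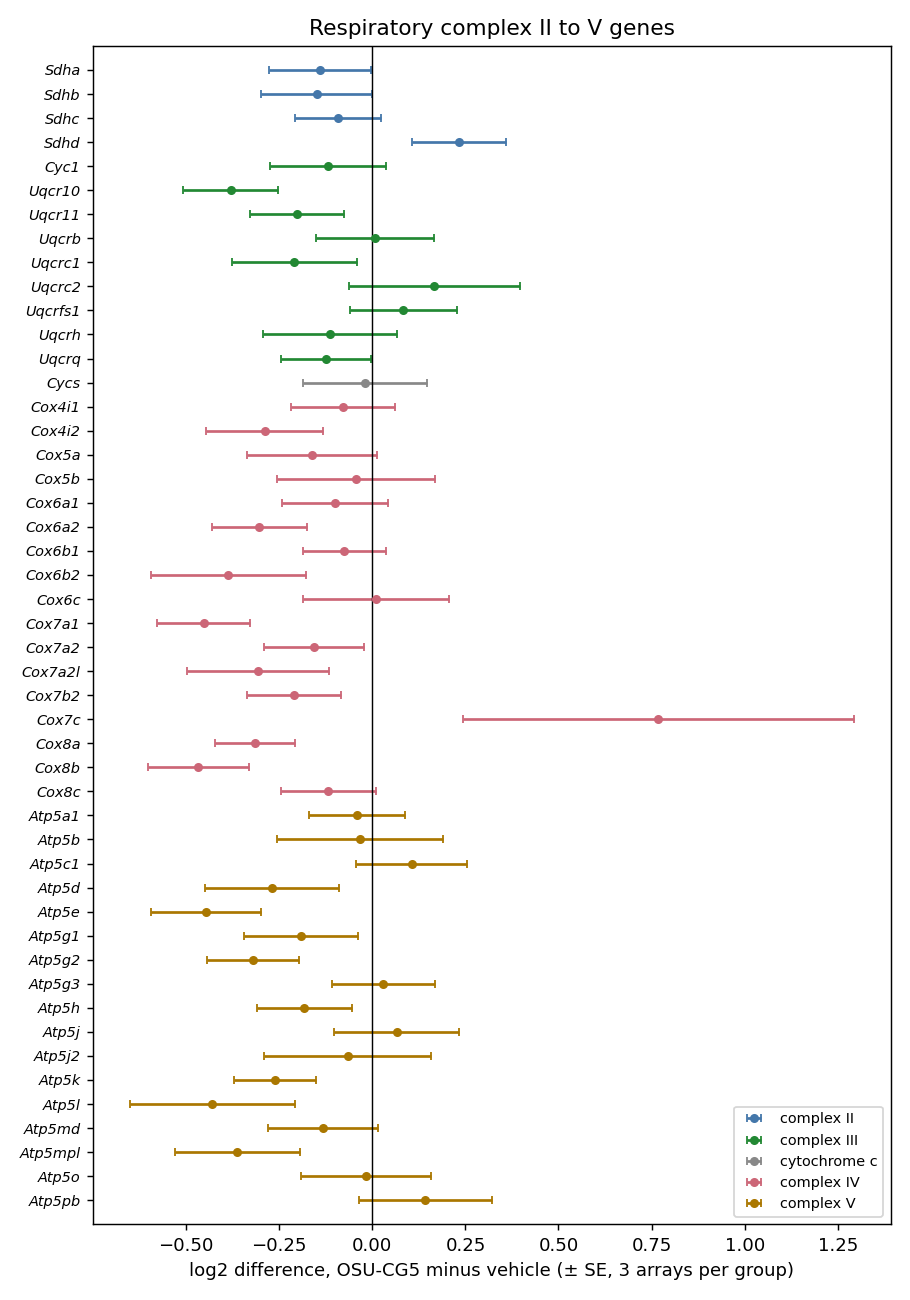
Log2 difference between OSU-CG5 and vehicle (x axis) for each of the 48 genes (y axis), coloured by complex, with bars for the SE (3 arrays per group). Most points lie slightly left of 0, with Cox8b lowest at -0.47, and Cox7c stands at the right with the widest bar.

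The lower readings were not spread evenly over signal levels. The 26 respiratory genes with a mean of at least log2 10 had a median difference of -0.04, 17 of them (65.4%) lay below 0, and 0 read lower at a nominal p below 0.05. Of the 1329 genes this bright, 42.7% lay below 0 and 3.46% read lower at that threshold, so a count of 0 among 26 is near the background. The 22 dimmer genes had a median of -0.27, 21 (95.5%) lay below 0, with Cox7c the exception, and all 8 of the lower genes (36.4%) were among them. Of all 16864 genes below log2 10, 67.5% lay below 0 and 8.82% read lower at that threshold. Over all genes the medians were 0.04 for the bright class and -0.10 for the dim one. This split was made after the values were seen, and 27 of the 48 genes lay at or above the 95th percentile of all probe set means. Bright probe sets can respond less than in proportion to RNA, and the part of this in the split was not tested.

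Complex II oxidises succinate with the catalytic subunits Sdha, the flavoprotein, and Sdhb, the iron-sulfur protein, and is held in the membrane by Sdhc and Sdhd. Sdha read 10.32, 10.07 and 10.17 with OSU-CG5, against 10.28, 10.53 and 10.17 with vehicle. Sdhb read 9.44, 9.21 and 9.20 with OSU-CG5, against 9.36, 9.69 and 9.25 with vehicle. In both, vehicle replicate 2 was the highest array and the groups overlapped, with differences of -0.14 (SE 0.14) for Sdha and -0.15 (SE 0.15) for Sdhb. Sdhc read 8.50, 8.54 and 8.57 with OSU-CG5, against 8.50, 8.72 and 8.67 with vehicle, a difference of -0.09 (SE 0.11). Sdhd read 10.52, 10.37 and 10.18 with OSU-CG5, against 10.17, 10.08 and 10.12 with vehicle. It was thus the gene of the complex whose arrays did not overlap, at 0.23 (SE 0.13, limma adjusted p = 0.386), while its other probe set differed by -0.06 (SE 0.13). The median difference of complex II was -0.12, and it was -0.03 without vehicle replicate 2.

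Complex III carries electrons through its Rieske iron-sulfur protein, Uqcrfs1, and its haem protein, Cyc1, on a scaffold of the core proteins Uqcrc1 and Uqcrc2. Cyc1 read 10.78, 10.41 and 10.48 with OSU-CG5, against 10.45, 10.87 and 10.70 with vehicle. The groups overlapped, at -0.12 (SE 0.16). Uqcrfs1 differed by 0.08 (SE 0.14). Uqcrc1 read 8.46, 8.39 and 8.46 with OSU-CG5, against 8.28, 8.88 and 8.78 with vehicle, so that vehicle replicate 1 lay below all treated arrays. Its difference was -0.21 (SE 0.17), and that of Uqcrc2 was 0.17 (SE 0.23), with vehicle replicate 3 at 12.34 and the other vehicle arrays at 11.48 and 11.43.

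The small complex III subunits included the gene of the complex that read lower at the nominal threshold. Uqcr10 read 8.86, 8.77 and 8.67 with OSU-CG5, against 9.32, 9.08 and 9.03 with vehicle. All treated arrays lay below all vehicle arrays, and the difference was -0.38 (SE 0.13, limma adjusted p = 0.224). The other probe sets of Uqcr10 differed by -0.23 and -0.03, with overlapping groups. Uqcr11 read 8.46, 8.22 and 8.15 with OSU-CG5, against 8.52, 8.41 and 8.52 with vehicle, a difference of -0.20 (SE 0.13) with overlap at OSU-CG5 replicate 1. Uqcrq read 8.99, 8.83 and 8.73 with OSU-CG5, against 8.89, 9.00 and 9.02 with vehicle, a difference of -0.12 (SE 0.12). Uqcrh and Uqcrb, the hinge and ubiquinone-binding subunits, differed by -0.11 and 0.01. Over the 9 genes the median was -0.12, with -0.05 when OSU-CG5 replicate 2 was left out and -0.19 when OSU-CG5 replicate 1 was.

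Cytochrome c, encoded by Cycs, shuttles electrons from complex III to complex IV and triggers apoptosome assembly when it leaks into the cytosol. Cycs read 12.28, 12.04 and 12.01 with OSU-CG5, against 12.24, 11.81 and 12.35 with vehicle. Vehicle replicate 2 was the lowest array, and the difference was -0.02 (SE 0.17). The other probe sets of Cycs differed by 0.13, 0.04 and -0.27, all with overlapping groups. The testis cytochrome c gene Cyct differed by 0.01 and read 3.56 to 3.91 with OSU-CG5 and 3.60 to 3.86 with vehicle.

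Complex IV, cytochrome c oxidase, has a catalytic core encoded by mitochondrial DNA, which was not analysed here, and nuclear subunits around it. Of the 17 nuclear genes 15 lay below 0, with a median of -0.16. Among the subunits with a single form in mammals, Cox5a differed by -0.16 (SE 0.17), the zinc-binding Cox5b by -0.04 (SE 0.21) and Cox6c by 0.01 (SE 0.20), each with overlapping groups. For Cox5b the spread came from vehicle replicate 3, at 12.62 against 11.81 and 11.83 on the other vehicle arrays.

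**Figure D2:**
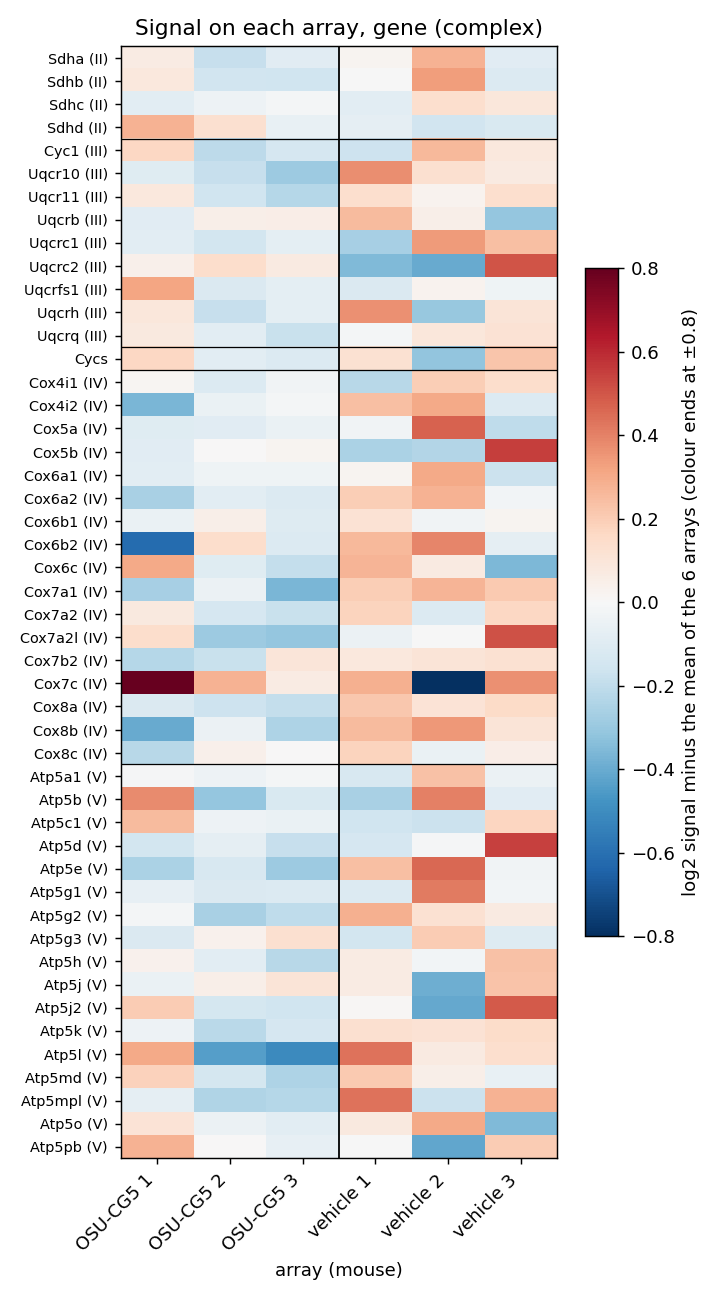
Signal of each of the 48 genes (rows, with the complex in brackets) on each array (columns, OSU-CG5 at left and vehicle at right), as log2 signal minus the mean of the 6 arrays. The colour scale ends at ±0.8, which Cox7c passes on vehicle replicate 2, where it read 5.35. The vehicle columns differ among themselves gene by gene.

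The muscle-type subunits of complex IV all read lower with OSU-CG5, and 2 of them, Cox7a1 and Cox8b, had the smallest adjusted p-values among the respiratory genes. Cox6a2, Cox7a1 and Cox8b replace Cox6a1, Cox7a2 and Cox8a in skeletal and heart muscle, and Cox7a1 and Cox8b are also typical of brown fat. Cox7a1 read 4.98, 5.20 and 4.88 with OSU-CG5, against 5.45, 5.52 and 5.46 with vehicle. Cox8b read 5.48, 5.84 and 5.64 with OSU-CG5, against 6.14, 6.24 and 5.99 with vehicle. Cox6a2 read 6.35, 6.53 and 6.50 with OSU-CG5, against 6.81, 6.89 and 6.59 with vehicle. In all 3 genes every treated array lay below every vehicle array. Cox7a1 and Cox8b were dim, with means over the 6 arrays of 5.25 and 5.89, and were not among the genes tested with a minimum mean of log2 6. The differences were -0.45 (SE 0.12, limma adjusted p = 0.183) for Cox7a1, -0.47 (SE 0.14, limma adjusted p = 0.190) for Cox8b and -0.30 (SE 0.13, limma adjusted p = 0.289) for Cox6a2. The other probe set of Cox6a2 differed by -0.26 (SE 0.16), with overlapping groups.

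In the probe sets used, the partners of these genes found in most tissues did not all behave alike. Cox8a read 8.82, 8.77 and 8.74 with OSU-CG5, against 9.15, 9.04 and 9.09 with vehicle. It was lower on every treated array, by -0.32 (SE 0.11, limma adjusted p = 0.228), and the other probe sets of Cox8a differed by -0.28 (SE 0.11), without overlap, and by -0.09 (SE 0.16), with overlapping groups. Cox7a2 read 13.05, 12.84 and 12.79 with OSU-CG5, against 13.15, 12.87 and 13.14 with vehicle, a difference of -0.16 (SE 0.13). The other probe set of Cox7a2 differed by -0.34 (SE 0.21), with overlapping groups. Cox6a1 read 13.30, 13.36 and 13.35 with OSU-CG5, against 13.41, 13.69 and 13.21 with vehicle. Its groups overlapped at -0.10 (SE 0.14), and without vehicle replicate 2 its difference was 0.03. The other probe set of Cox6a1 differed by -0.29 (SE 0.16), with overlapping groups. Whether a muscle-type gene differed more than its partner was not tested.

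**Figure D3:**
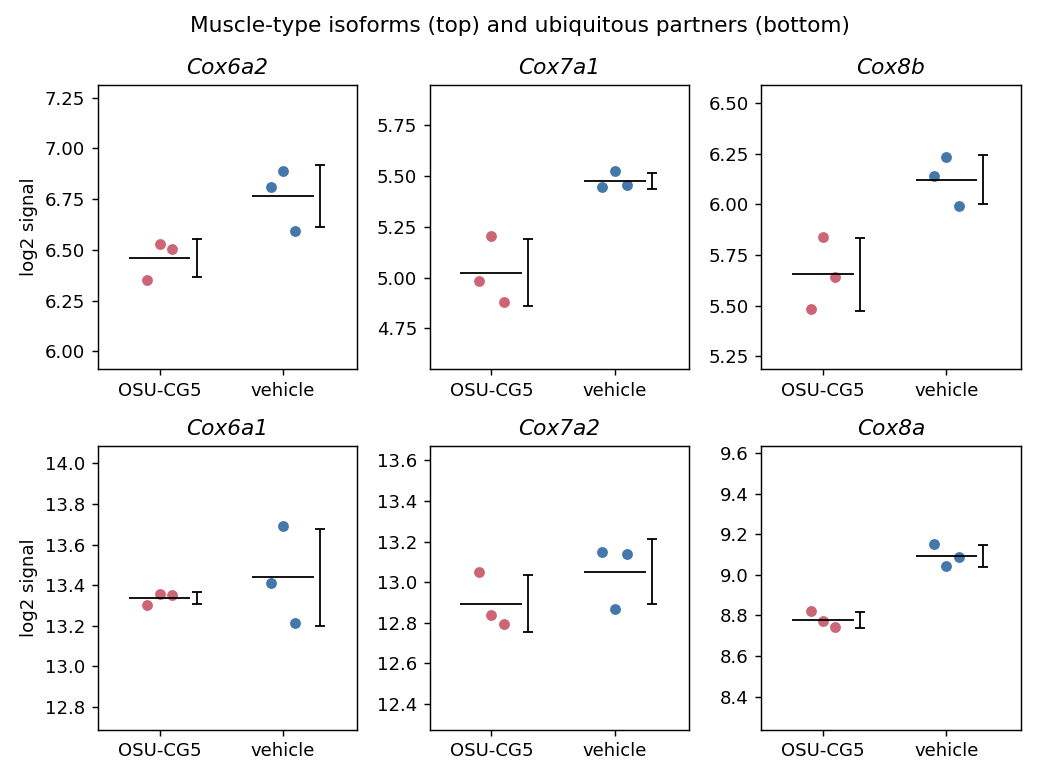
Log2 signal (y axis, each panel spanning the same range) on the OSU-CG5 and vehicle arrays for the muscle-type genes Cox6a2, Cox7a1 and Cox8b (top row) and their partners Cox6a1, Cox7a2 and Cox8a (bottom row). Points are arrays, lines are means and bars are the SD of 3 arrays. The groups are apart in the top row and for Cox8a, and overlap for Cox6a1 and Cox7a2.

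Transcripts of skeletal muscle cells read lower with OSU-CG5 on the same arrays. All 14 skeletal muscle markers lay below 0, with a median of -0.61, 10 of them (71.4%, against 8.43% of all genes) were lower at a nominal p below 0.05, and 0 passed adjustment. Their mean over the list was 4.64 to 5.26 with OSU-CG5 and 5.35 to 5.83 with vehicle, without overlap, and 3 of the 14 had a mean signal of at least log2 6. Without vehicle replicate 2, 7 of the 14 were lower at the nominal threshold. Over all 18193 genes 11945 lay below 0 (65.7%), and 5145 of the 9627 with a mean of at least log2 6 did. Dimmer genes, as most of these markers are, thus lay below 0 more often. The oxygen carrier myoglobin, Mb, differed by -0.62 (SE 0.14) and the muscle creatine kinase Ckm by -0.51 (SE 0.15). Of 7 smooth muscle markers 6 lay below 0 and 4 (57.1%) were lower at the nominal threshold, with a median of -0.30 and a list mean of 8.90 to 9.17 with OSU-CG5 and 9.16 to 9.41 with vehicle, overlapping at replicate 1 of each group. The 4 brown fat markers had a median of -0.06, and Ucp1, the uncoupling protein that defines that tissue, read 3.80 to 4.36 with OSU-CG5 and 4.00 to 4.44 with vehicle. The part of muscle cells in the lower Cox6a2, Cox7a1 and Cox8b readings was not tested.

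The stretches upstream of these genes are shown because the muscle-type and common forms differ there in sequence. RefSeq promoters of build GRCm38.p6 matched 36 of the 48 genes by gene number, with 39 start sites, and Cox6a2 was not among them. Each line gives the 250 bases before the start site, read 5′ to 3′ on the gene's strand. Capitals mark matches on either strand to the NRF1 core GCATGCGC, the ETS core CCGGAAG bound by GABPA, or the E-box CAGCTG, and they overlap nowhere in these windows.
Cox7a1, chr7:30183921-30184170, plus strand: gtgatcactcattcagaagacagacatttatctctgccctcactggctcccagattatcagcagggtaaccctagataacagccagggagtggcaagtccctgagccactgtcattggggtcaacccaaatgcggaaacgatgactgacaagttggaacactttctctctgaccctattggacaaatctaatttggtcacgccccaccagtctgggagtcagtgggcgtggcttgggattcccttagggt
Cox8b, chr7:140900447-140900696, minus strand: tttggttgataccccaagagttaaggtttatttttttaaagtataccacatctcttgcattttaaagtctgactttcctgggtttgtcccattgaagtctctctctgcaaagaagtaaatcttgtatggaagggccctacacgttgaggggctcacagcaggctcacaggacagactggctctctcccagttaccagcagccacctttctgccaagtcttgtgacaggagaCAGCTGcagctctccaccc
Cox7a2, chr9:79759854-79760103, minus strand: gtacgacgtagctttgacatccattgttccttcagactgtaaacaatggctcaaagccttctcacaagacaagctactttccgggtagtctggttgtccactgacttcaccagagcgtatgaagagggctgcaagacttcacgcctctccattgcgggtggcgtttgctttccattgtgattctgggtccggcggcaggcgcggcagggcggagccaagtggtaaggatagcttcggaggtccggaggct
Cox8a, chr19:7217617-7217866, minus strand: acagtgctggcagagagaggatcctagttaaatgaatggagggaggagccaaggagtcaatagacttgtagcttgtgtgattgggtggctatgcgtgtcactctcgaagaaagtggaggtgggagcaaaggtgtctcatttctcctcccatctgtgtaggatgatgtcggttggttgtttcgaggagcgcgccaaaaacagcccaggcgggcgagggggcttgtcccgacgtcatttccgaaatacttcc
Cycs, chr6:50566570-50566819, minus strand: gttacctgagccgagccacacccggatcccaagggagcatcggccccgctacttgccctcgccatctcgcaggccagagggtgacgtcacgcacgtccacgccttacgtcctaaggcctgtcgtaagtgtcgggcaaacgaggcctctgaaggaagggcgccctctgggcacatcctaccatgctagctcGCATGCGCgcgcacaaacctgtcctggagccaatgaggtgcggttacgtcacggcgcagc

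The windows of the muscle-type genes held few CG dinucleotides, 4 for Cox7a1 and 1 for Cox8b, against 14 for Cox7a2, 11 for Cox8a and 23 for Cycs. Over 35 start sites of the other respiratory genes whose mean reached log2 6 the number ran from 5 to 35, with a median of 15, and the median of all 32851 promoters was 6. The NRF1 core, the site of a factor known to drive many respiratory genes, was found in 6 of the 39 windows (15.4%) and in 2.26% of all windows. Those 6 belonged to Atp5g2, Atp5k, Atp5l, Cox6a1, Cycs and Sdhb. The ETS core was found in 9 of the 39 windows (23.1%) and in 6.91% of all windows, and the E-box in 2 (5.13%) and in 13% of all windows. Cox8b was a holder of the E-box, and neither of the first 2 motifs was found in the windows of Cox7a1, Cox8b, Cox7a2 or Cox8a. A match describes these letters only.

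Other complex IV isoforms read low or overlapped. Cox4i1, the common form of subunit 4, read 12.55, 12.42 and 12.50 with OSU-CG5, against 12.31, 12.73 and 12.67 with vehicle, a difference of -0.08 (SE 0.14). Its partner Cox4i2, a form of lung and of oxygen-sensing cells, read 4.19, 4.51 and 4.55 with OSU-CG5, against 4.80, 4.87 and 4.45 with vehicle, a difference of -0.29 (SE 0.16). In both pairs of groups the arrays overlapped. Cox6b1 differed by -0.07 (SE 0.11), and the testis forms Cox6b2, Cox7b2 and Cox8c by -0.39 (SE 0.21), -0.21 (SE 0.13) and -0.12 (SE 0.13). Cox7b2 lay at 2.38 to 2.70 with OSU-CG5 and 2.70 to 2.73 with vehicle, near the bottom of the scale. Cox7a2l, a relative of Cox7a2 that links complexes III and IV into supercomplexes, read 11.87, 11.44 and 11.43 with OSU-CG5, against 11.69, 11.73 and 12.24 with vehicle. Its 3 probe sets differed by -0.31, -0.30 and -0.26, each with overlapping groups.

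Cox7c, a small subunit of complex IV, had the largest difference in size among the 48 genes and also the widest spread. It read 7.96, 7.43 and 7.22 with OSU-CG5, against 7.44, 5.35 and 7.52 with vehicle. Vehicle replicates 1 and 3 lay among the treated arrays, and vehicle replicate 2 was far below them, which set the difference of 0.77 (SE 0.53, limma adjusted p = 0.484). The other probe set of Cox7c differed by 1.17 (SE 0.46). It read 6.43, 5.74 and 5.69 with OSU-CG5, against 4.81, 3.74 and 5.80 with vehicle. Vehicle replicate 2 was again the lowest array, but here vehicle replicate 1 also lay below all treated arrays.

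Complex V, the ATP synthase, has a catalytic F1 head, a peripheral stalk and a membrane part with a ring of c subunits. In the head the alpha, beta and gamma subunits Atp5a1, Atp5b and Atp5c1 differed by -0.04 (SE 0.13), -0.03 (SE 0.22) and 0.11 (SE 0.15). The other probe sets of Atp5a1 differed by -0.04 and -0.45, and the dimmer probe set of Atp5c1 by 1.09 (SE 0.43), each with overlapping groups. The delta subunit Atp5d differed by -0.27 (SE 0.18), with vehicle replicate 3 at 12.32 above all other arrays. The smallest head subunit, epsilon or Atp5e, read 8.26, 8.39 and 8.22 with OSU-CG5, against 8.75, 8.98 and 8.49 with vehicle. Its groups did not overlap, at -0.45 (SE 0.15, limma adjusted p = 0.220), and it had no other probe set.

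Atp5g1, Atp5g2 and Atp5g3 encode the same c subunit of the ring, and their readings did not move together. Atp5g2 read 7.47, 7.23 and 7.28 with OSU-CG5, against 7.77, 7.61 and 7.56 with vehicle, a difference of -0.32 (SE 0.12, limma adjusted p = 0.265) without overlap. Another probe set of Atp5g2 went the opposite way, by 0.77 (SE 0.32), and read 6.58, 5.98 and 5.82 with OSU-CG5, against 5.69, 4.61 and 5.79 with vehicle. The probe sets of Atp5g2 thus disagreed in direction. Atp5g1 read 7.31, 7.26 and 7.26 with OSU-CG5, against 7.26, 7.79 and 7.35 with vehicle, a difference of -0.19 (SE 0.15) that rested on vehicle replicate 2 and was -0.03 without it. The other probe set of Atp5g1, dim with a mean of 3.95, differed by 0.39 (SE 0.17), without overlap. The probe sets of Atp5g1 thus disagreed in direction as well. Atp5g3 read 12.55, 12.69 and 12.79 with OSU-CG5, against 12.52, 12.87 and 12.56 with vehicle, a difference of 0.03 (SE 0.14).

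In the membrane part, Atp5k, the e subunit, which helps ATP synthase form dimers, read 9.91, 9.74 and 9.82 with OSU-CG5, against 10.09, 10.07 and 10.10 with vehicle. The vehicle arrays were very close to each other and all above the treated ones, at -0.26 (SE 0.11, limma adjusted p = 0.292). The other probe sets of Atp5k differed by -0.13 and -0.34. Atp5mpl, the small proteolipid, read 8.72, 8.56 and 8.57 with OSU-CG5, against 9.23, 8.63 and 9.08 with vehicle, a difference of -0.36 (SE 0.17) with overlap at vehicle replicate 2. Atp5l, the g subunit, differed by -0.43 (SE 0.22), Atp5md by -0.13 (SE 0.15) and the f subunit Atp5j2 by -0.07 (SE 0.22). The stalk subunits Atp5pb, Atp5h, Atp5j and Atp5o differed by 0.14, -0.18, 0.07 and -0.02, with SE of 0.13 to 0.18. Of the 17 genes of complex V 13 lay below 0, where 65.7% of all genes did, and the median was -0.13. It came to -0.04 with OSU-CG5 replicate 3 left out and to -0.23 with OSU-CG5 replicate 1 left out.

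Of the 48 probe sets used 11 carry the suffix x or s, which marks probes that can also match other transcripts, among them those of Cox5b, Cox7c, Atp5e and Atp5k. Where a gene had more than 1 probe set, the others could be set beside the one used. This held for 30 of the 48 genes, which had 48 further probe sets. The brightest further probe set shared the sign of the one used in 23 of the 30 genes, with a median difference of -0.13 against -0.11 for the probe sets used. Of the 23 genes below 0, 19 were below 0 in both. At a nominal p below 0.05, 3 of the 48 further probe sets read higher and 2 lower with OSU-CG5. Over all 45037 probe sets 4338 read higher and 3061 lower at that threshold. The one-sided count of the probe sets used was thus not seen in the further ones. Counts of 3 and 2 are too small to show a direction, and over all probe sets more read higher than lower. The further probe sets that read at least 0.25 higher with OSU-CG5 numbered 6, belonging to Atp5c1, Atp5g1, Atp5g2, Cox5b, Cox7c and Sdha, which were picked out after their values were seen. In 5 of the 6 vehicle replicate 2 was the lowest array, and none had a mean above 6.86.

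**Figure D4:**
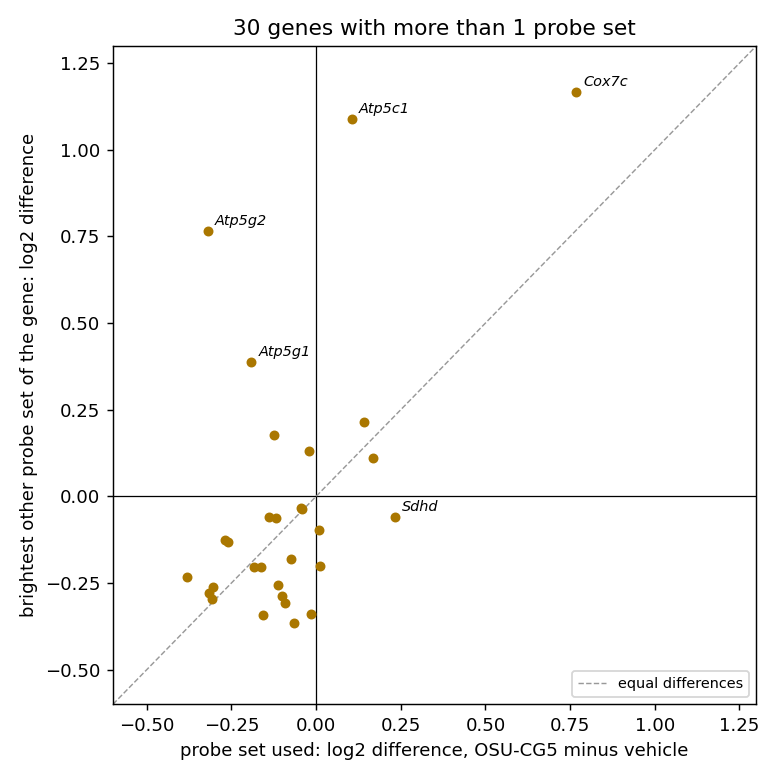
Log2 difference between OSU-CG5 and vehicle in the probe set used (x axis) and in the brightest other probe set of the same gene (y axis) for the 30 genes that have one. Most points lie below 0 on both axes, and Cox7c, Atp5c1, Atp5g2 and Atp5g1 stand above the dashed line of equal differences.

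Genes around these complexes showed differences of similar or greater size, in both directions. The list for complex I was taken by the prefix Nduf alone, so not every gene in it encodes a complex I subunit, and it also holds assembly factors. Of its 44 genes, 29 (65.9%) lay below 0 with a median of -0.10. At a nominal p below 0.05, 3 (6.82%) were lower and 1 (2.27%) higher. These shares are near or below those of all genes, 65.7%, 8.43% and 5.4%. Of the 44 genes, 40 had a mean of at least log2 6. Among all 9627 genes at least this bright, fewer lay below 0, 5145, with a median of -0.02. Ndufaf8, an assembly factor, differed by -0.39 (SE 0.15) and Ndufa3, a small accessory subunit, by -0.34 (SE 0.14). Ndufs1, the largest iron-sulfur subunit of complex I, read 10.27, 10.03 and 10.02 with OSU-CG5, against 9.93, 9.75 and 9.66 with vehicle. It was higher on every treated array, by 0.33 (SE 0.13, limma adjusted p = 0.275). Whether this Nduf list and complexes II to V differed from each other was not tested.

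Of 34 assembly factors of complexes II to V, 31 were measured, with a median of -0.13 and 23 below 0 (74.2%, against 65.7% of all genes). At a nominal p below 0.05, 3 were lower and 3 higher (9.68% each, against 8.43% and 5.4% of all genes), and without vehicle replicate 2 these counts were 5 and 3. Pet100, which helps build complex IV, read 7.26, 6.92 and 6.85 with OSU-CG5, against 7.70, 7.50 and 7.94 with vehicle. Its groups did not overlap, at -0.71 (SE 0.16, limma adjusted p = 0.154), and the other probe set of Pet100 differed by 0.10. Lrpprc, which stabilises mitochondrial messenger RNAs of complex IV, read 8.34, 8.31 and 8.32 with OSU-CG5, against 7.75, 8.02 and 7.90 with vehicle, a difference of 0.44 (SE 0.12, limma adjusted p = 0.179). Ttc19, a complex III factor, differed by 1.08 (SE 0.18, limma adjusted p = 0.125) in the probe set used and by -0.08 and -0.13 in its others, so its probe sets disagreed.

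Among 12 transcription factors and coactivators of mitochondrial genes 6 lay above 0, with a median of 0.04. At a nominal p below 0.05, 4 were higher (33.3%, against 5.4% of all genes) and 0 lower, and without vehicle replicate 2 there were 3 higher. Tfb2m, which starts transcription of mitochondrial DNA, read 9.43, 9.47 and 9.48 with OSU-CG5, against 9.03, 9.13 and 9.03 with vehicle. It stood apart on every array, at 0.39 (SE 0.11, limma adjusted p = 0.181). Gabpa differed by 0.43 (SE 0.14), and its dimmer probe set by 0.01. Nrf1 differed by 0.51 (SE 0.17), and its other probe sets by 0.78, -0.41 and 0.01, so they disagreed. The fourth was the coactivator Ppargc1a, named after its value was seen, at 0.43 (SE 0.16), and its other 4 probe sets differed by 0.09 to 0.46.

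**Figure D5:**
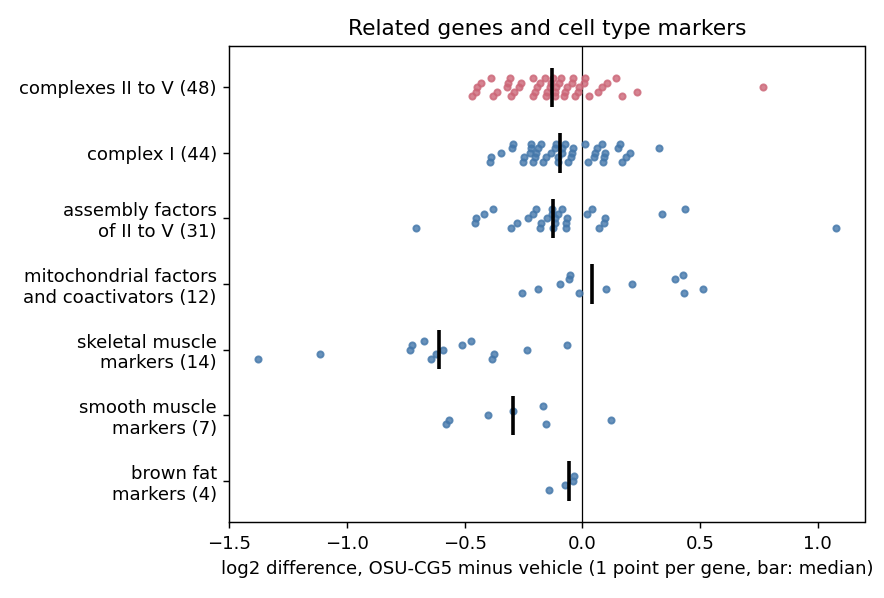
Log2 difference between OSU-CG5 and vehicle (x axis) for the genes of complexes II to V and for related gene lists and cell type markers (rows, number of genes in brackets). Each point is a gene and each bar the median of its row, which is -0.13 for complexes II to V and -0.61 for skeletal muscle markers.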

How the data were processed

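The authors deposited log2 signals, 1 per probe set and array. Per the submitters' processing notes they were made by RMA, whose software is not given in the sources used here. RMA is known to normalize the arrays to a shared distribution, which partly removes a broad shift in 1 direction. Of 45101 deposited probe sets 64 Affymetrix controls were left out of the test. Genes were named from the platform annotation, and all 48 symbols were found unchanged in a RefSeq table. The test was limma 3.58.1 in R 4.3.3 (lmFit and eBayes over 45037 probe sets, Benjamini-Hochberg), and it was tested on simulated data. Groups came from the source labels, and replicate numbers pair no mice. Some treated samples' free-text descriptions carry another number after the compound's prefix, and source label and title were followed. Named were all complex II genes, Cyc1, Cycs, the 4 smallest unadjusted p-values in each of complexes III, IV and V, genes with isoform partners and the 3 smallest p-values of each related list. The respiratory genes and lists were chosen with earlier results of these data known. With 3 arrays in each group, their number sets the precision. The mice are separate animals, per the series design.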

Additional observations from a re-analysis of the deposited data

How the results depend on the processing

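Alternatives were a minimum mean of log2 6, arrays centred on their median, cyclic loess, array quality weights, an unmoderated linear model, a robust prior with an intensity trend, testing 1 probe set for every gene, the mean over a gene's probe sets, and leaving out each array in turn. No paired analysis was possible because replicate numbers only name the mice. Adjusted calls over all 45037 probe sets numbered 822 with array weights, 60 of them lower with OSU-CG5, and 0 to 885 with an array left out. Without vehicle replicate 2 there were 400, of which 21 were lower, and without vehicle replicate 3 there were 885, of which 34 were lower. Of the 48 respiratory genes 0 was among the calls in any of these fits. The calls were a small part of the 45037 probe sets, so a count of 0 among 48 is near the background. At a nominal p below 0.05 the count of lower respiratory genes was 4 of the 43 measured with the minimum mean. It was 5 with the intensity trend and 5 with the mean over probe sets. It was 11 with array weights and 2 to 9 with an array left out. The shares of all genes at that threshold were not computed for these fits. The count of higher ones was 1 with the mean over probe sets and 0 to 1 with an array left out. The median of all 48 genes was -0.19 to -0.11 with an array left out and -0.043 for those of at least log2 10, a limit added after seeing the data. The complex IV median was -0.11 with the minimum mean, -0.21 with the mean over probe sets and -0.22 to -0.15 with an array left out. The complex V median was -0.20 with array weights and -0.23 to -0.044 with an array left out. Of the 29 named respiratory genes 7 changed sign somewhere. With the mean over probe sets the differences were 0.10 for Atp5g1, 0.12 for Atp5g2 and 0.037 for Sdha. Atp5g3 was -0.011 with cyclic loess, Cox4i1 was 0 with array weights, and with an array left out Atp5g3 ran over -0.035 to 0.14, Cox6a1 over -0.21 to 0.025 and Cycs over -0.18 to 0.087. The cause of these changes was not tested.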
